A study of Homo sapiens with 5 samples.

Results

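H3K27ac ChIP-seq signal was described at the promoters of the genes for SR proteins, heterogeneous nuclear ribonucleoproteins (hnRNPs), snRNP proteins, the SF3A and SF3B complexes and U2AF, in HCT116 cells with and without interferon beta (IFN-β). The genes were chosen by symbol among the 20020 protein-coding genes of GENCODE release 44, as those that begin with SRSF, SF3A or SF3B and a number, or with HNRNP, SNRP or U2AF. Of the 63 genes chosen, 55 had an H3K27ac peak centred at most 1 kb from one of their transcription start sites. Where a gene had several such peaks, that with the highest mean signal was taken. These 55 genes lay on 54 distinct peaks of the 20087 peaks in the table, because HNRNPUL2 and the readthrough gene HNRNPUL2-BSCL2 shared a peak. By the same distance, 11334 peaks were promoter peaks of any protein-coding gene, and 11721 genes had one.

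HCT116 cells derive from a human colorectal carcinoma. In every library the cells were of a derivative line that expresses the plant auxin receptor osTIR1 from the CMV promoter and carries a degron-tagged cohesin subunit (RAD21-mAC). All cells were held in 0.1% DMSO for 6 h. In the IFN-β group, 2 libraries were then made after 1 h with 1000 unit/ml IFN-β. In the control group, 2 libraries were made from cells that received nothing further, and their labels give 0 min where those of the IFN-β group give 60 min. The groups may therefore also differ by 1 h of culture, and this cannot be told apart from IFN-β. A further library was input chromatin. The table gives each peak as the log2 of mean normalised reads in each group, with no value per library, so no SD between replicates can be given, no test was run, and the difference between groups was not set against the spread of replicates here. Each value below is the authors' mean for a group. Of 10 markers of colorectal epithelium, 7 had a promoter peak (EPCAM, KRT8, KRT18, KRT19, CDH1, CLDN4 and CDX2, with control signals from 4.48 to 7.10), and CDX1, VIL1 and LGALS4 had none. Of 11 markers of blood, endothelium, fibroblasts, liver and glia, 1 had a promoter peak (COL1A1, 5.24 in control).

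Introns are removed by the spliceosome, which is assembled on each pre-mRNA from small nuclear ribonucleoproteins (snRNPs) and many further proteins. The U1 snRNP recognises the 5′ splice site, U2AF binds the polypyrimidine tract and the AG at the 3′ splice site, and the U2 snRNP with its SF3A and SF3B complexes engages the branch point. SR proteins mostly bind exonic enhancers and promote exon inclusion, while many hnRNPs package the transcript, repress splice sites or act on RNA export and decay. Most of these genes are expressed in nearly all cells from CpG-rich promoters, and H3K27ac marks promoters and enhancers in use.

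The promoters with the highest control signal in each family by reads of the whole peak, and that of HNRNPLL, whose IFN-β value was the highest relative to promoters of similar signal, are printed to show the sequences behind the values below. Each runs 5′ to 3′ on the strand of its gene, from 250 bases before to 50 bases after the canonical start, in GRCh38. Capitals mark matches on either strand to the GC box (GGGCGG), the ETS core (CCGGAAG), the NRF1 site (GCATGCGC), the CCAAT box (CCAAT) and the TATA box (TATAAA). The windows are SRSF2 at chr17:76737282-76737581 (minus strand), HNRNPUL1 at chr19:41264122-41264421 (plus), SNRPA at chr19:40750953-40751252 (plus), SF3A2 at chr19:2236574-2236873 (plus), U2AF2 at chr19:55654785-55655084 (plus) and HNRNPLL at chr2:38602879-38603178 (minus).
SRSF2: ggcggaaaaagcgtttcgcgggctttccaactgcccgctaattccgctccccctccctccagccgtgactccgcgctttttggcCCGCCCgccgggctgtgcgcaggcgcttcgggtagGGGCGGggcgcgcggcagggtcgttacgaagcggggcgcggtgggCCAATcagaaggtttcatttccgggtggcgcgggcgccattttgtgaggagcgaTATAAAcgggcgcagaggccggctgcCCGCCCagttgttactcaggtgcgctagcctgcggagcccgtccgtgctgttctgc
HNRNPUL1: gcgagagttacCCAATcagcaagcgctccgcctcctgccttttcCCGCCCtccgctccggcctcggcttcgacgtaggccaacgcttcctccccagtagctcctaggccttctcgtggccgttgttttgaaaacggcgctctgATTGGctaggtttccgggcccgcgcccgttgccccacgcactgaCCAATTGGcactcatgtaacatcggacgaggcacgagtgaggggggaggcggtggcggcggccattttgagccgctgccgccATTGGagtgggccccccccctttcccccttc
SNRPA: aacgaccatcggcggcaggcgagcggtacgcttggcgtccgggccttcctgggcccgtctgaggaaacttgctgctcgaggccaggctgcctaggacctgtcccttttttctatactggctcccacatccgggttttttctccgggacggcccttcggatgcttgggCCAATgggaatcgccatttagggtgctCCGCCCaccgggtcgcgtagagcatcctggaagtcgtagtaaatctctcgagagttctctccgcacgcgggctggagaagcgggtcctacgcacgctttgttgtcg
SF3A2: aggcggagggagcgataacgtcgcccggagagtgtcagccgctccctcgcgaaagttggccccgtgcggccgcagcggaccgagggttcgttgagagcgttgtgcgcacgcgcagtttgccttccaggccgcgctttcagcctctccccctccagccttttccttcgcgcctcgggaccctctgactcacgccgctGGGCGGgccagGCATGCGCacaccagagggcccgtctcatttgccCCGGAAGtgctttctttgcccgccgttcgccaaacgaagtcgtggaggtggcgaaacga
U2AF2: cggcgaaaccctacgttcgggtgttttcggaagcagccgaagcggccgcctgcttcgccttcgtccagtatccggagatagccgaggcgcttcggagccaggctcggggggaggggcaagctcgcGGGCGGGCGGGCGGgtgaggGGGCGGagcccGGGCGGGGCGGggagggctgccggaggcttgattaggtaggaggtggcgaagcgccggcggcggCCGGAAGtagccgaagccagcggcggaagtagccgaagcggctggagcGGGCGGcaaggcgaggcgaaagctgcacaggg
HNRNPLL: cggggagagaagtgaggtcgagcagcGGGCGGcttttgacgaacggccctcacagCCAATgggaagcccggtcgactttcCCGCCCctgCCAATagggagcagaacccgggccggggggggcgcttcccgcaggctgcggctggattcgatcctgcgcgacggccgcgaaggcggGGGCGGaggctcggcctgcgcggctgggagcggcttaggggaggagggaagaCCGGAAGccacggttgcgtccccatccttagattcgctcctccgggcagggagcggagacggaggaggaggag
The U2AF2 window held 7 GC boxes, some of them overlapping, and the HNRNPUL1 window held 5 CCAAT matches, of which a pair on opposite strands overlapped. The SRSF2 window joined a CCAAT box and a TATA box. GC content was between 61.3% (SNRPA) and 72.3% (U2AF2), with 27 CpGs in HNRNPUL1 and 40 in U2AF2. These windows lay wholly within their peaks in SNRPA, SF3A2, U2AF2 and HNRNPLL, by 286 of 300 bases in SRSF2 and by 164 of 300 bases in HNRNPUL1. Over the 55 genes, 31 windows lay wholly inside the peak, 22 in part and 2 outside (HNRNPA2B1 and SRSF8), so no window is printed for SRSF8, which had the lowest relative value.

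Members carried high H3K27ac signal in control cells and lower values after IFN-β, as did nearly all promoters. The median control signal of the 55 genes was 6.66 on the log2 scale (lowest 1.87, highest 7.94), against 5.52 over the 11334 promoter peaks and 5.62 over the highest peak of each gene. Of the 55, 47 lay above the promoter median and 41 above the 75th percentile of promoter peaks (6.18). A peak's reads grow with its width, and 49 of the members' peaks were exactly 1000 bp wide, while 6 were between 1641 and 1871 bp. Per 1000 bp, the median was 6.50 for members and 5.43 for promoter peaks.

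After IFN-β the members' median was 5.89. The IFN-β value was below the control value at all 55 genes, with a median difference of -0.75 and a range from -1.14 to -0.42. The same median, -0.75, was found over all promoter peaks, of which 319 (2.81%) were above 0, and over all 20087 peaks it was -0.69. In linear terms the median difference put the IFN-β value at 59.5% of control, for the members and for promoter peaks alike. The authors normalised by library size, and whether the shift common to all peaks came from the cells or from that scaling was not tested. Less the median of promoter peaks, the members' median difference was 0.00.

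**Figure D1:**
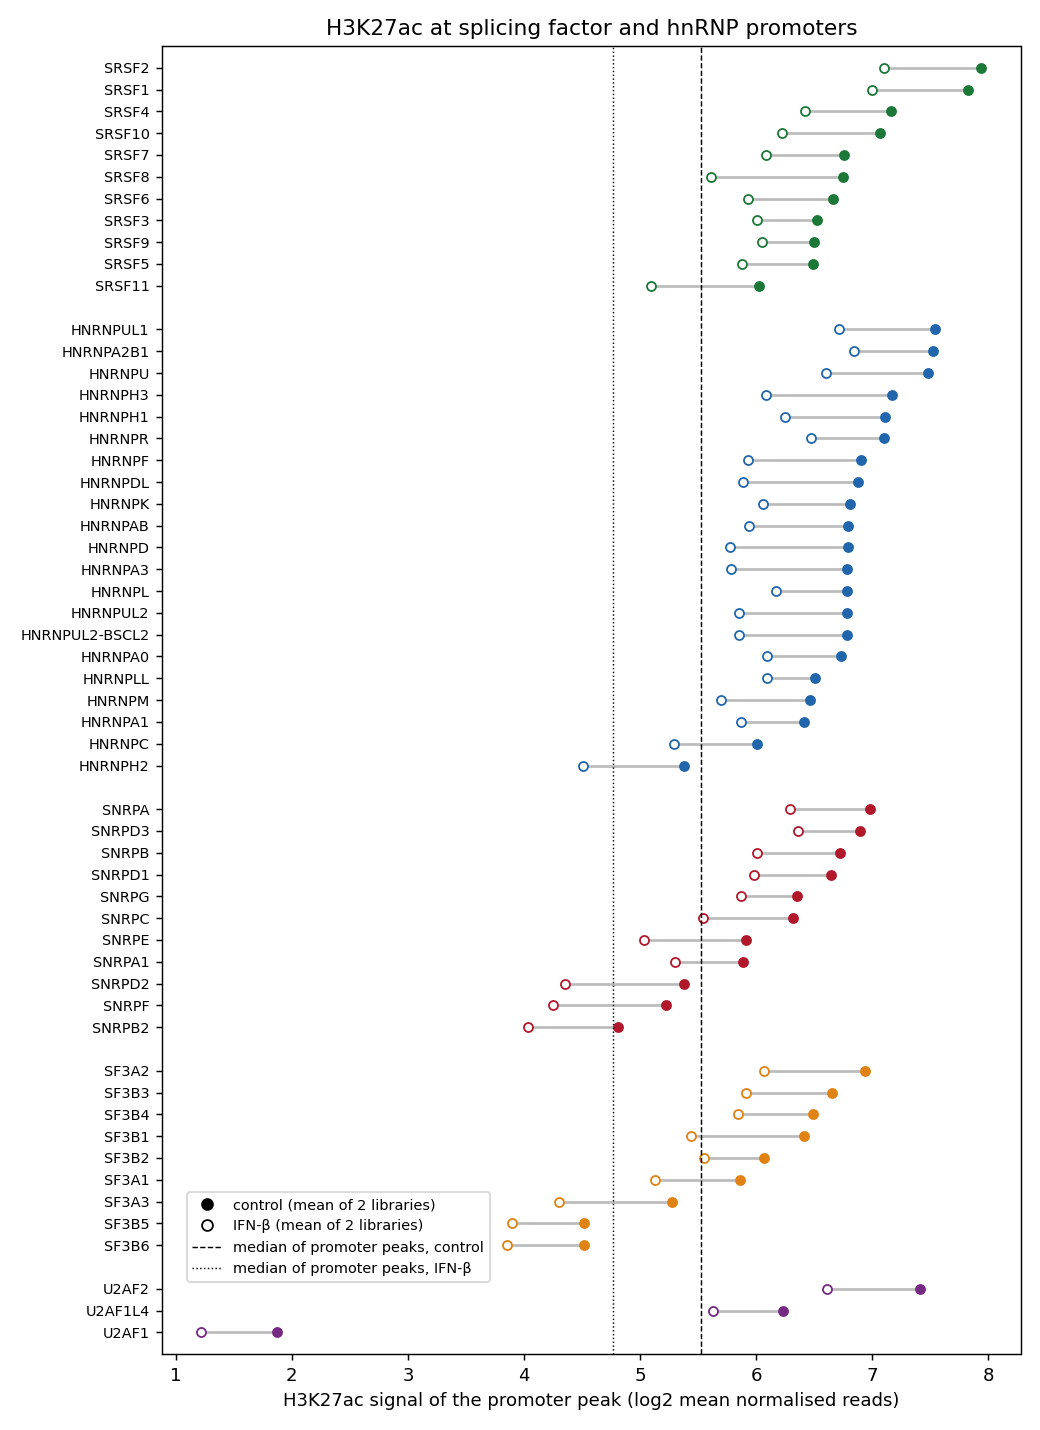
H3K27ac signal (log2 mean normalised reads, horizontal axis) of the promoter peak of each of the 55 genes, by family and in order of control signal. Filled points are control and open points IFN-β, each the authors' mean of 2 libraries, and vertical lines give the medians of promoter peaks (5.52 in control, 4.77 with IFN-β). Every open point lies left of its filled point, and U2AF1 stands apart at 1.87 and 1.22.

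To set each gene beside promoters of like signal, the median difference of the 500 other promoter peaks nearest in mean signal was subtracted, which gave the relative difference. Its median over the 55 genes was 0.03, with 30 genes above 0 and 23 below. The lowest was -0.33 (SRSF8) and the highest 0.39 (HNRNPLL). Within their own 500 neighbours, 48 of the 55 genes lay between the 10th and the 90th percentile, 2 lay under it and 5 over it.

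Past a relative difference of 0.25, there were 7 members (12.7%), against 18.3% of promoter peaks. These were HNRNPLL, SRSF9, SNRPG, SRSF3, SNRPD3, HNRNPA1 and SF3B2. With neighbours alike in GC content as well, 4 remained above 0.25, while SNRPG (0.22), SRSF3 (0.22) and HNRNPA1 (0.19) did not. Past -0.25 in the other direction there were 4 members (7.27%), against 18.3%, namely SRSF8, SNRPD2, HNRNPH3 and SF3A3. SNRPF (-0.27) joined them when neighbours were alike in GC content as well, which made 5 below -0.25. With a log2 difference below -1 were 4 members (7.27%), SRSF8, HNRNPH3, SNRPD2 and HNRNPD, against 18.1% of promoter peaks. HNRNPD, at -1.02, lay just inside that limit, and HNRNPA3, with 6.78 in control and 5.78 with IFN-β, lay on it and was not counted. Promoter peaks of high signal spread less. Among the 2270 with a mean signal of at least 6, 10.3% were above 0.25, 9.16% below -0.25 and 14.8% lower by over 1. Of the 39 members at that signal, 6 (15.4%), 2 (5.13%) and 3 (7.69%) were past the same limits. These shares are of few genes, and nothing particular to the members is read from them.

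**Figure D2:**
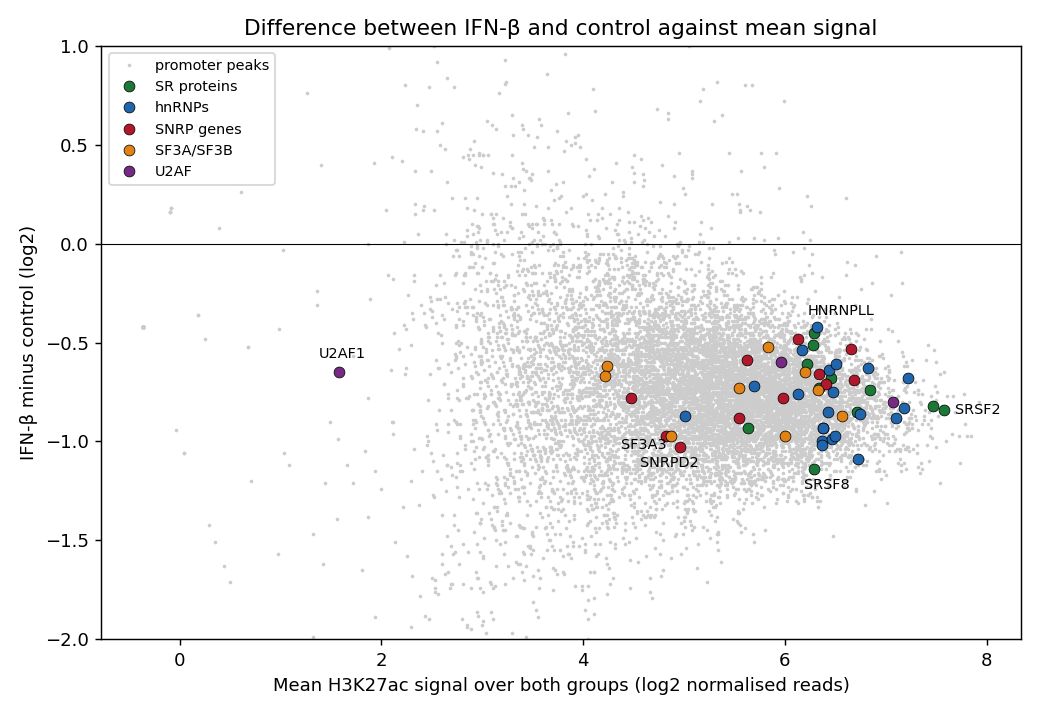
IFN-β minus control (log2, vertical axis) against the mean signal over both groups (log2 normalised reads, horizontal axis) for the 11334 promoter peaks (grey, of which 50 lie beyond the axis, below -2 or above 1) and the 55 member genes (coloured by family). The members sit within the grey cloud, most of them at its high-signal end and all below 0, with SRSF8 lowest at -1.14 and HNRNPLL highest at -0.42.

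The SR protein genes had 11 of 12 members with a promoter peak, a median control signal of 6.75 and no value under 6.02. SRSF2, which binds exonic enhancers and is mutated in myeloid neoplasms, had the highest signal of all members, 7.94 in control (246 normalised reads) and 7.10 with IFN-β (137 reads), and its control value was above 99.9% of promoter peaks. SRSF1, the founding SR protein, followed at 7.82 in control (226 reads), with 128 reads after IFN-β. Their differences of -0.84 and -0.82 were within 0.01 of the median of promoters of similar signal in either direction. SRSF11, an SR-related protein, had the lowest control signal of the family, 6.02, with 5.09 after IFN-β.

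The lowest difference of all members and one of the highest were in this family. SRSF8, an SR gene that arose by retrotransposition, read 6.75 in control and 5.61 with IFN-β, a difference of -1.14 and a relative difference of -0.33, the lowest of all 55. SRSF9, which had nearly the same mean signal (6.29 for each), read 6.50 and 6.05, a difference of -0.45 and a relative difference of 0.36. The IFN-β value was 73.2% of control at SRSF9 and 45.4% at SRSF8. SRSF3, the smallest SR protein, had a relative difference of 0.30 (6.52 in control, 6.01 with IFN-β). SRSF4, SRSF5, SRSF6, SRSF7 and SRSF10 lay between -0.04 (SRSF10) and 0.20 (SRSF5).

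The SRSF8 peak, chr11:95067094-95068094, was centred in the gene's exon, downstream of the canonical start at 95066919, whose window had 38.0% GC and 3 CpGs. Of the 31-base words of this peak, 13.9% occurred more than once in the reference, and their part in the value was not tested. The SRSF9 peak, chr12:120469055-120470055, lay over the starts of SRSF9 and of DYNLL1 on the opposite strand.

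The hnRNP genes were the largest family, with 21 of 27 genes on a peak, the highest median control signal of the larger families (6.79) and the lowest median difference (-0.85, relative -0.04). In 11 of the 21 the relative difference was below 0 and in 9 above. HNRNPUL2 and HNRNPUL2-BSCL2, which share a peak, are both counted in this family throughout. HNRNPUL1 (7.54 in control, 6.71 with IFN-β), HNRNPA2B1 (7.52 and 6.84) and HNRNPU (7.48 and 6.60), the nuclear scaffold protein, had the highest signals. HNRNPH2 had the lowest by its chosen peak, 5.38 and 4.51. A second HNRNPH2 promoter peak close by, chrX:101407091-101408091, read 4.96 and 3.94, and its reads are not in that value. HNRNPC, which packages nascent transcripts and binds uridine tracts, was next at 6.01 and 5.29.

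The A/B and D proteins, which share paired RNA recognition motifs, lay on either side of 0. HNRNPA1, a splicing repressor, read 6.41 in control and 5.87 with IFN-β, a relative difference of 0.27, and HNRNPA0 (0.18) and HNRNPA2B1 (0.15) were also above 0. HNRNPA3, at -0.18 (6.78 in control, 5.78 with IFN-β), was below, as were HNRNPD, the AU-rich element binding protein AUF1 (6.79 and 5.77, relative -0.20), its relative HNRNPDL (-0.17) and HNRNPAB (-0.04). Among the F and H proteins, which bind runs of G, all 4 were below 0, HNRNPH3 the most (7.17 and 6.08, relative -0.28), with HNRNPF at -0.15, HNRNPH2 at -0.14 and HNRNPH1 at -0.05. These differences between relatives carry no replicate error and were not tested.

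HNRNPL, which binds CA repeats, and its paralog HNRNPLL, which regulates exons of CD45 in T cells, lay on the high side. HNRNPLL read 6.51 in control and 6.09 with IFN-β, so that its difference of -0.42 was the nearest to 0 of all 55 genes, at 74.7% of the control signal. Its relative difference of 0.39 was above those of 96.4% of its neighbours. HNRNPL had a relative difference of 0.21, with 6.78 and 6.17. The HNRNPLL peak, chr2:38602067-38603931, was 1864 bp wide, and per 1000 bp its control signal was 5.61, against a median of 5.43 for promoter peaks. The other members with peaks wider than 1000 bp were also above 0, namely SNRPD3 (0.28), SNRPA (0.12), SNRPB (0.11), SRSF4 (0.09) and SF3B5 (0.07). With peaks of 1000 bp only, the members' median relative difference was 0.00. The part of peak width in these values was not tested. HNRNPK, HNRNPM, HNRNPR, HNRNPU, HNRNPUL1, HNRNPUL2 and HNRNPC were between -0.11 (HNRNPUL2) and 0.19 (HNRNPR).

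The SNRP genes had 11 of 12 members on a peak and a lower median control signal, 6.32, or 5.94 per 1000 bp. The Sm proteins form the heptameric ring on the U1, U2, U4 and U5 snRNAs, and their 7 genes read from 5.22 to 6.89 in control, although the ring holds 1 copy of each product. SNRPD3 was highest (6.89, and 6.36 with IFN-β), then SNRPB (6.72 and 6.01), SNRPD1 (6.64 and 5.98), SNRPG (6.35 and 5.87), SNRPE (5.91 and 5.03), SNRPD2 (5.38 and 4.35) and SNRPF (5.22 and 4.25). Per 1000 bp the order at the top differed, with SNRPD1 (6.64) and SNRPG (6.35) ahead of SNRPD3 (6.13) and SNRPB (5.94), whose peaks were wider.

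Differences over the Sm ring went from -0.48 (SNRPG) to -1.03 (SNRPD2). SNRPG and SNRPD3, with relative differences of 0.33 and 0.28, were on the high side, SNRPD1 (0.15) and SNRPB (0.11) between, and SNRPE (-0.12), SNRPF (-0.23) and SNRPD2 (-0.30) on the low side. The 3 genes with the lowest control signal were thus those below 0. Of the neighbours of SNRPD2, 15.2% were lower still, and of those of SRSF8, at a higher signal, 4.40%.

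The U1 proteins SNRPA (6.98 in control, 6.29 with IFN-β), which binds a U1 snRNA stem-loop, and SNRPC (6.32 and 5.54), which stabilises pairing with the 5′ splice site, had relative differences of 0.12 and 0.00. Of the 31-base words of the SNRPC peak, 25.9% were repeated in the reference. The U2 proteins SNRPA1 and SNRPB2, which bind U2 snRNA together, read 5.89 and 5.30, and 4.81 and 4.03, with relative differences of 0.19 and -0.05. SNRPB2 was the lowest of the family.

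All 9 genes of the SF3A and SF3B complexes had a promoter peak, with a median control signal of 6.07 and a median difference of -0.73 (relative 0.04). In SF3A, which joins SF3B to the U2 snRNP, SF3A2 read 6.94 and 6.07, SF3A1 5.86 and 5.13, and SF3A3 5.27 and 4.30. SF3A3 had the lowest relative difference of the family, -0.26, and SF3A1 and SF3A2 were at 0.03 and -0.05.

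In SF3B, SF3B1, the branch-site HEAT-repeat protein that splicing inhibitors bind, had the lowest relative difference, -0.18, with 6.41 in control and 5.44 with IFN-β. SF3B2 was the highest, with 6.07 and 5.55, a relative difference of 0.26, followed by SF3B4 at 0.16 (6.49 and 5.84). SF3B3 (6.65 and 5.91), SF3B5 (4.52 and 3.90) and SF3B6 (4.52 and 3.85) were at 0.07, 0.07 and 0.04. At their chosen peaks, the small subunits SF3B5 and SF3B6 thus had control signals 2 log2 units or more under that of SF3B3. Their relative differences matched that of SF3B3 within 0.03. SF3B6 had a second promoter peak close by, chr2:24076778-24077778, with 4.26 in control and 3.32 with IFN-β. The reads of that peak are not in the SF3B6 value, so the gap is one of chosen peaks, not of whole promoters. The SF3B5 peak was 1641 bp wide, and per 1000 bp it read 3.81.

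The U2AF genes ranged from 1.87 to 7.41 in control. U2AF2, the large subunit that binds the polypyrimidine tract, read 7.41 and 6.61, and U2AF1L4, a paralog of the small subunit, 6.23 and 5.63. U2AF1, the small subunit that reads the AG of the 3′ splice site, read 1.87 and 1.22, or 3.66 and 2.33 normalised reads. Its control signal was above that of 1.21% of promoter peaks and lower by over 2 log2 units than that of any other member. The relative differences were 0.03, 0.19 and -0.02.

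The low U2AF1 value lay in duplicated reference sequence. Of the 31-base words in its peak (chr21:43106692-43107692), 86.2% occurred more than once in GRCh38, with the copy between 6498371 and 6499370 on chromosome 21. A peak of the table lay there too, at chr21:6498418-6499418, with 1.26 in control and 0.40 with IFN-β. The part of this copy in the low value was not tested. Of the 54 peaks, 9 had over 5% of such repeated words and the median was 0. Beside U2AF1, SNRPC and SRSF8 these were HNRNPA3 (10.3%), SRSF6 (8.97%), HNRNPC (8.25%), SF3B5 (8.25%), SNRPE (8.04%) and SF3A2 (7.84%), whose part in the values was not tested.

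**Figure D3:**
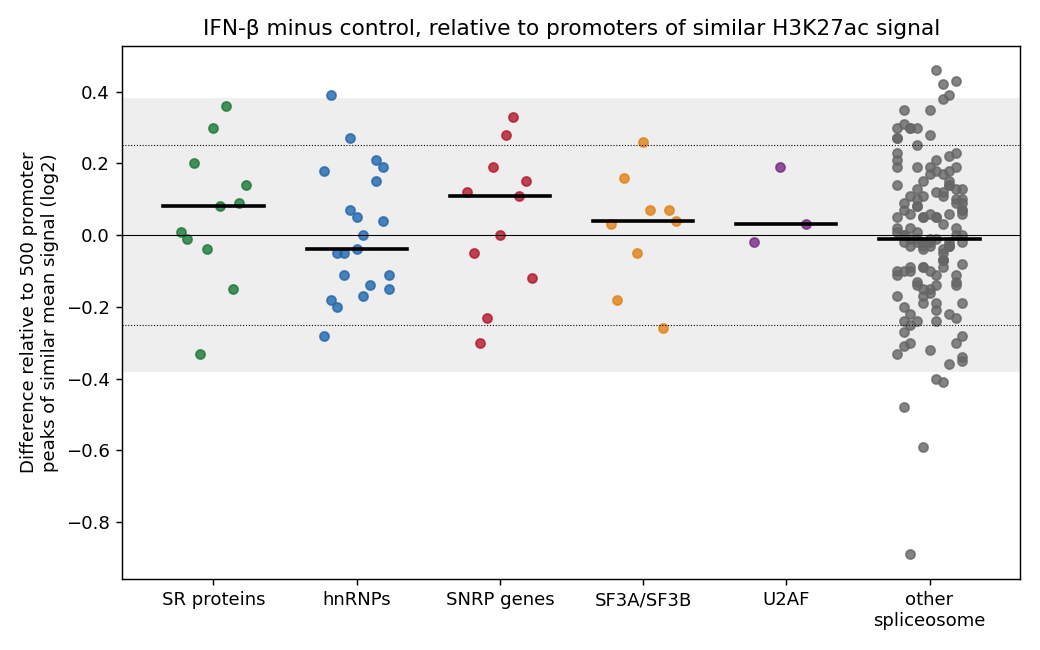
Relative difference (IFN-β minus control, less the median of the 500 promoter peaks nearest in mean signal, log2) of each gene in the 5 families and of 145 other spliceosome genes. Black bars are medians (0.08, -0.04, 0.11, 0.04, 0.03 and -0.01 from left to right), the grey band spans the 10th to the 90th percentile of promoter peaks, and dotted lines are 0.25 and -0.25. Each of the 5 families has values on both sides of 0, and HNRNPLL at 0.39 is the highest member.

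The 8 genes with no promoter peak were SRSF12, SNRPN, HNRNPA1L2, HNRNPA1L3 and the 4 HNRNPC-like genes HNRNPCL1, HNRNPCL2, HNRNPCL3 and HNRNPCL4. SNRPN, the imprinted paralog of SNRPB used mainly in brain, lay 483815 bp from the nearest peak centre, and the HNRNPCL genes between 230050 and 534649 bp. HNRNPA1L3 was at 859954 bp, SRSF12 at 24375 bp and HNRNPA1L2, an intronless copy of HNRNPA1, at 9953 bp. Peak calling sets a lower limit on signal, so no level is given for these genes.

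Of the 55 genes, 47 had 1 promoter peak, 7 had 2 and HNRNPUL1 had 3. The 9 further promoter peaks read from 2.38 to 6.86 in control, and all were lower with IFN-β, with differences from -1.31 (HNRNPUL1) to -0.42 (HNRNPL). In HNRNPF the second peak was nearly as high as the first, 6.86 against 6.90, with differences of -0.91 and -0.97. Another 5 peaks lay within a member gene or up to 5 kb upstream of it. The SNRPG intragenic peak (chr2:70289035-70290035), 3903 bp from the start, read 3.29 in control and 3.59 with IFN-β. At 0.30 it was the only one of these 14 further peaks that was higher with IFN-β. Its control signal was below the median of all peaks (5.04), and nothing particular to SNRPG is read from it. At U2AF1L4 an upstream peak read 5.01 and 3.70, a difference of -1.31, against -0.60 at its promoter.

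The centre of the peak lay downstream of the nearest start in 32 genes and upstream in 23, at a median distance of 170 bp and at most 643 bp (SNRPD3). By the canonical transcript, 23 centres were in an intron, 13 in an exon and 19 outside the transcript. At 19 of the 55 genes (34.5%) a protein-coding gene on the opposite strand also started within 1 kb of the peak centre, against 23.7% of the 11721 genes with a promoter peak. Partners included CBX5 at HNRNPA1 and CBX3 at HNRNPA2B1, which encode heterochromatin proteins, GEMIN6 of the snRNP assembly complex at SRSF7, and MFSD11 at SRSF2. Among members far from 0 in relative difference, SNRPD3 had the partner GUCD1, SNRPD2 had QPCTL, HNRNPH3 had PBLD and SRSF9 had DYNLL1. Signal at such a peak cannot be assigned to either gene. The 19 genes with a partner had a median control signal of 6.78 and difference of -0.74, and the 36 without one 6.58 and -0.77.

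Base composition differed among the families. In the 1000 bp around the peak centre, the median GC content was 67.2% for hnRNP genes, 63.8% for SR genes, 63.1% for U2AF genes, 57.5% for SF3 genes and 56.3% for SNRP genes, against 64.2% for promoter peaks. Of 21 hnRNP genes 14 lay above the promoter median, and of 11 SNRP genes only SNRPD3 (67.7%). The ratio of observed to expected CpG had a median of 1.00 in the SR genes, where all 11 were above the promoter median of 0.78, and 0.77 in the SNRP genes. HNRNPAB had the highest GC content (75.6%) and HNRNPC the lowest (47.2%). Across the 55 genes, GC content and the difference had a Spearman correlation of -0.11 and a Pearson correlation of -0.11, with -0.18 (Spearman) across promoter peaks, and genes share the same libraries. With neighbours chosen for like GC content as well as signal, the median relative differences were 0.07 for SR, -0.03 for hnRNP, 0.06 for SNRP, 0.01 for SF3 and 0.06 for U2AF genes.

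**Figure D4:**
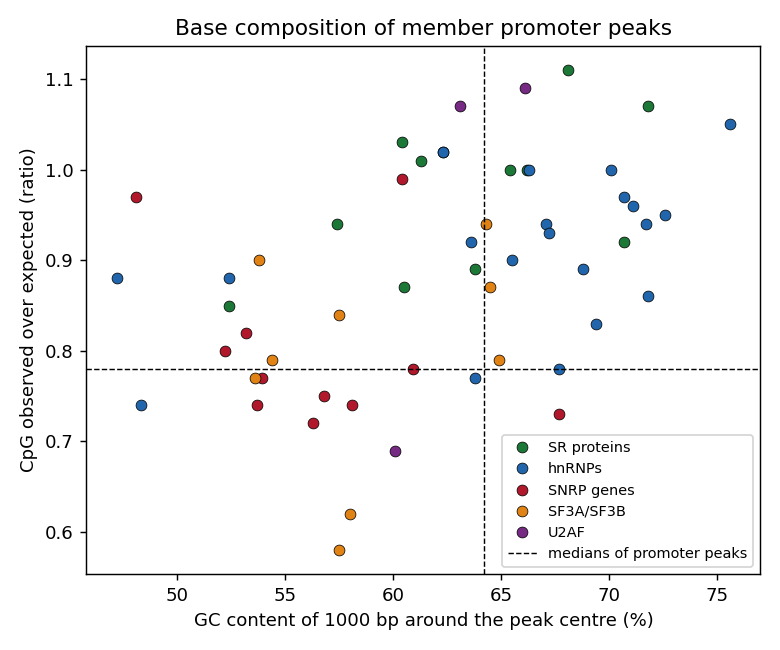
GC content (percent, horizontal axis) and observed over expected CpG (ratio, vertical axis) of the 1000 bp around each member's peak centre, coloured by family, with dashed lines at the medians of promoter peaks (64.2% and 0.78). SNRP genes gather at lower GC, hnRNP genes at higher GC, and the SR genes all lie above the horizontal line.

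Motifs were counted on either strand in the 300 bases around the canonical start. The ETS core CCGGAAG was found in 19 of the 55 promoters (34.5%), against 14.1% of all protein-coding promoters and 21.2% of those with a peak. It was held by 7 of 11 SNRP genes (SNRPA1, SNRPB, SNRPB2, SNRPC, SNRPD1, SNRPE and SNRPG) and 6 of 9 SF3 genes, but by 3 of 21 hnRNP and 2 of 11 SR genes. The CCAAT box was held by 16 of 21 hnRNP, 6 of 11 SNRP, 3 of 11 SR, 2 of 9 SF3 and 0 of 3 U2AF genes, and by 27 of the 55 (49.1%) in all, against 36.1% of all promoters and 36.1% of those with a peak. The GC box GGGCGG was in 34 (61.8%), against 61.3% of all promoters and 76.6% of those with a peak, with 17 of 21 hnRNP and 4 of 11 SNRP genes. HNRNPUL2 and HNRNPUL2-BSCL2, whose windows overlap, are each counted for the CCAAT box and for the GC box. SNRPA1, SNRPD1, SNRPE, SNRPG and HNRNPLL held both an ETS core and a CCAAT box. From RefSeq starts, known for 51 of the 55 genes, the ETS core was in 37.3% of members against 14.4% of RefSeq promoters. The CCAAT box was then in 41.2% against 36.6%, a smaller gap than from the canonical starts.

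The TATA box TATAAA was in 8 member promoters (14.5%), against 9.71% of all promoters and 4.74% of those with a peak. From RefSeq starts it was in 11.8% of members against 9.63% of RefSeq promoters. Counted from the start, its first letter lay at -32 in SRSF2, -30 in SRSF3, -29 in HNRNPAB and -27 in SRSF7. In HNRNPD it lay at -126, in HNRNPC at -184, and in SRSF11 and SNRPC, where the match was on the other strand, at -206 and -237. The NRF1 site GCATGCGC was in 6 (10.9%, against 4.27% of all promoters and 6.17% of those with a peak) and the E-box CACGTG in 6 (10.9%, against 8.75% and 10.3%). The YY1 site AAGATGG was in 4 (7.27%, against 6.42% and 8.19%), all of them SF3 genes (SF3A1, SF3B2, SF3B4 and SF3B6), and the element CTCGCGAG in 3 (5.45%, against 1.46% and 2.17%). The YY1 site and the ETS core can overlap by 3 letters. The CRE TGACGTCA was in 0 of the 55, against 2.69% of all promoters and 3.55% of those with a peak. GAAANNGAA, the core of the interferon-stimulated response element, was in 5 (9.09%, against 7.03% and 6.09%), namely HNRNPD, HNRNPU, SNRPB2, SNRPC and SRSF11, whose relative differences were -0.20, -0.05, -0.05, 0.00 and -0.15. Members with an ETS core had a median relative difference of 0.04 and those without 0.01, and those with and without a CCAAT box 0.07 and 0.02.

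**Figure D5:**
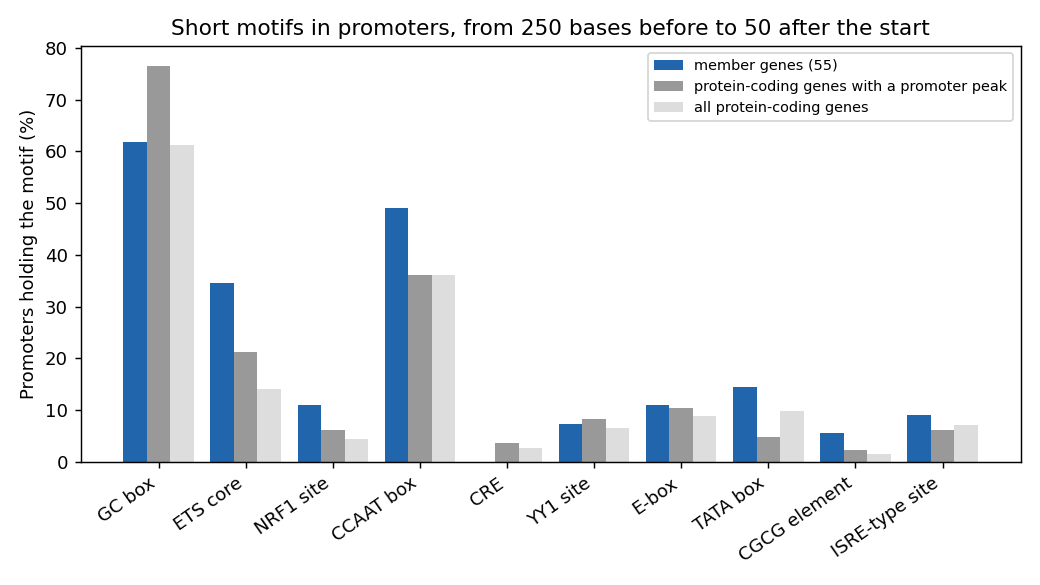
Share of promoters (percent) that hold each of 10 short motifs on either strand, from 250 bases before to 50 after the canonical start, for the 55 member genes (blue), the 11721 protein-coding genes with a promoter peak (grey) and all 20020 protein-coding genes (light grey). The ETS core, the CCAAT box and the TATA box are more frequent in members (34.5%, 49.1% and 14.5%) than in either reference. So are the NRF1 site (10.9%), the E-box (10.9%), the ISRE-type site (9.09%) and the CGCG element (5.45%), each in at most 6 members. The CRE is in none. From RefSeq starts, not drawn, the CCAAT box was in 41.2% of members against 36.6% of promoters, and the TATA box in 11.8% against 9.63%.

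Further spliceosome genes were read beside the members from a list by role. Of 146, 145 had a promoter peak, with a median control signal of 6.03, a median difference of -0.79 and a median relative difference of -0.01. Above 0.25 were 15 of them (10.3%, against 18.3% of promoter peaks), below -0.25 another 15 (10.3%, against 18.3%), and 18 were lower by over 1 (12.4%, against 18.1%). Among promoter peaks with a mean signal of at least 6, the shares were 10.3%, 9.16% and 14.8%. That limit was not applied to these genes, and nothing particular to them is read from the shares. GEMIN6, counted among them, shares its peak with SRSF7. The highest relative differences were those of DHX16, an RNA helicase (4.43 in control, 4.20 with IFN-β, 0.46), and of the tri-snRNP proteins PRPF4 (5.66 and 5.33, 0.43) and PPIH (5.26 and 4.94, 0.42). The lowest were those of CTNNBL1 of the PRP19 complex (3.80 and 2.23, -0.89), QKI (5.32 and 4.00, -0.59) and HTATSF1 (5.61 and 4.37, -0.48). Place among neighbours of similar signal gave another order. Of the neighbours of CTNNBL1, 5.8% were lower still, against 1.6% for QKI and 3% for HTATSF1. DHX16 lay above 90% of its neighbours, PRPF4 above 95.4% and PPIH above 94%. CTNNBL1 and DHX16, at lower signal, were thus furthest from 0 in value but not in place among neighbours. Genes of the cytosolic ribosome (76 of 82 with a peak) and the proteasome (36 of 39) had median control signals of 6.33 and 6.00 and median relative differences of -0.01 and -0.03, beside 6.66 and 0.03 for the members.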

How the data were processed

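H3K27ac ChIP-seq libraries of HCT116 cells (2 IFN-β, 2 control, 1 input) were processed by the authors. Per the labels, reads were handled with bcl2fastq 2.17, fastp 0.19.3, Bowtie2 2.25 (as the labels give it), SAMtools, MACS2 and DiffBind with DESeq2, on GRCh38. The deposited table gives, for each merged peak, log2 mean normalised reads over all H3K27ac libraries and per group, normalised by the authors for library size. Its further columns hold the authors' own fold change, p-value and FDR between the groups, which were not used here. Reads per library and peak are not in these values, so depth per value is unknown, no interval is given, and no test was run. The input library has no column of its own.

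The overall column was checked to be the log2 of the mean of both group values (largest deviation 0.00971). Peak centres were linked to GENCODE release 44 starts within 1 kb. The relative difference used the 500 other promoter peaks nearest in mean signal. Its computation was run on simulated shifts, which bear on neither the spread of replicates nor the scaling. Sequences came from GRCh38, the build of the table, with pysam 0.24.0 and samtools 1.23.1. RefSeq promoters (GRCh38) matched 51 of the 55 genes and served as an alternative for motifs. Tables and figures were made in Python 3.11.15 (numpy 2.4.6, pandas 2.3.3, scipy 1.17.1, numba 0.67.0, matplotlib 3.10.9).

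Named are the highest and lowest of each family by control signal and by difference, the 5 highest and lowest relative differences, all Sm, SF3 and U2AF genes, genes with no peak, and the 3 highest and lowest other spliceosome genes. Further members were named after their values were seen. Members and lists were chosen with earlier results of these data known. Alternatives changed the distance, the peak chosen, the neighbours, the centring and the starts.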

Additional observations from a re-analysis of the deposited data

How the results depend on the processing

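Of 82 values recomputed under alternatives, 72 stayed within 0.1 on the log2 scale or within 1.5 times for counts and motif shares. Of the rest, 10 moved and 0 turned direction. The limit of 0.1 is wider than the members' median relative difference of 0.03, which was between 0.00 and 0.05 under the alternatives. This tally therefore says little about that median. Without peaks that also had a start on the other strand, 36 members were left, 2 lower by over 1, 4 above similar promoters and 2 below. With neighbours alike in GC content as well, 4 members were above (HNRNPLL, SRSF9, SNRPD3 and SF3B2) and 5 below (SRSF8, SNRPD2, HNRNPH3, SF3A3 and SNRPF). With peaks of 1000 bp only, chosen after seeing the data, 4 were above. Less the median of all peaks, the members' median difference was -0.06 with 0 lower by over 1, and less the median of promoter peaks 0.00 and 0. By construction these remove the shift common to all peaks.

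Leaving out a library was not possible because the table holds group means only. No paired analysis was possible because the table has no value per library. The group means of a few reads, at U2AF1 and at its copy, are the lowest counts behind any value reported for a single peak. The medians and shares over promoter peaks also rest on lower signals, down to -0.17 in control.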
